A study of Mus musculus with 16 samples.

Results

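Voltage-gated calcium, sodium and HCN channels were examined as 31 genes of the 22180 genes measured on Affymetrix arrays in mouse hippocampus. The members were taken by a rule on symbols, which was chosen with earlier results of these data known. They are the pore subunits Cacna1a to Cacna1s, the alpha2delta subunits Cacna2d1 to Cacna2d4 and the calcium channel beta subunits Cacnb1 to Cacnb4. The sodium channel pore and beta subunits whose symbols start with Scn, and the measured HCN genes Hcn2, Hcn3 and Hcn4, complete the set. Where a gene had several probe sets with exactly 1 symbol, the one with the highest mean stood for it. Of 36 symbols that this rule finds in a RefSeq table, 5 had no such probe set and were not analysed here. There were 16 arrays in 4 groups of 4: Astro-D2KO mice after status epilepticus (SE, a prolonged seizure), Astro-D2KO mice given saline, control mice after SE and control mice given saline. Astro-D2KO mice carried floxed D2 together with a glial cre, so that Dio2, the gene of the type 2 deiodinase that turns thyroxine into the active hormone T3, was targeted in glia. The controls had wild-type D2 and carried the same glial cre. All groups were of the C57BL/6 strain, were 8 to 10 weeks old and received lithium chloride at 10 mEq/kg, followed 18 h later by pilocarpine at 65 mg/kg in the SE groups or by saline. Effects of the seizure and of pilocarpine itself therefore cannot be told apart. The sources used here do not say how long after pilocarpine the tissue was taken, nor the sex of the mice. The labels name each array as a mouse and do not say more on how the animals were kept or paired, so the p-values measure the spread between these samples.

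Voltage-gated sodium channels carry the upstroke of the action potential, and their pore subunits differ in the cell types and the parts of the neuron in which they act. Voltage-gated calcium channels turn depolarisation into calcium entry for transmitter release, dendritic spikes and gene regulation. Their pore is set in the membrane and tuned by alpha2delta and beta subunits. HCN channels open on hyperpolarisation and set resting potential and rhythmic firing. In the hippocampus these families decide together how easily a neuron fires singly or in bursts, and many channelopathies with epilepsy map to them.

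After SE, averaged over both genotypes, 11 of the 31 channel genes fell and 0 rose. The fall was called for the calcium pores Cacna1b, Cacna1d and Cacna1h, the alpha2delta subunits Cacna2d2 and Cacna2d3, the sodium pores Scn2a, Scn3a, Scn7a and Scn8a, the sodium beta subunit Scn2b and the HCN channel Hcn2. The falls ran from 0.18 for Cacna1b to 0.85 for Cacna1h on the log2 scale, or 1.13-fold to 1.80-fold. A change was called where the adjusted p from limma, corrected by Benjamini-Hochberg over all 22180 genes, was below 0.05. Over all genes, 20.6% were called lower and 12.1% higher in this comparison. The median log2 difference of the 31 members was −0.13, beside a median of −0.0084 over all genes. In Astro-D2KO mice alone 8 members were called, all lower, where 12.6% of all genes were called lower and 7.49% higher. Control mice had 6 members called, all lower, where 13.7% of all genes were called lower and 8.42% higher. The median member difference was −0.11 in Astro-D2KO mice and −0.18 in control mice. A gene was called dim where its mean was below 5.79, the 95th percentile of the means of 1394 olfactory and vomeronasal receptor genes. Scn7a lay below that level in all 16 arrays, so its call rests on faint signal. Of the 23 members that were not dim, 10 fell on average over genotypes (43.5%), where 31.8% of all genes that were not dim were called lower. In Astro-D2KO mice 7 of these 23 fell (30.4%), beside 19.5% of all genes that were not dim. In control mice 6 fell (26.1%), beside 21.5%, so the control count lay near its background. At an unadjusted p under 0.05, 10 members (32.3%) passed in Astro-D2KO mice, 12 (38.7%) in control mice and 14 (45.2%) on average over genotypes. Over all genes the shares were 30.8%, 33.0% and 40.9%, so those of the members lay near the background.

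The count of 0 rises depended on the scaling and on single arrays. With each array centred on its median, Hcn4, whose probe set was dim, passed as a rise on average over genotypes (log2 difference 0.16, adjusted p = 0.0493) and in Astro-D2KO mice (0.26, adjusted p = 0.0377). Scn9a passed as a rise in control mice without the array labelled Control SE replicate 1 (log2 difference 0.48, adjusted p = 0.0393). Cacna1c did so in control mice without Control SE replicate 2 (0.28, adjusted p = 0.0433). Hcn4 did so in Astro-D2KO mice without Astro-D2KO SE replicate 3 (0.29, adjusted p = 0.0393) and without Control saline replicate 2 (0.24, adjusted p = 0.0416). The 8 members called in Astro-D2KO mice became 5 without Astro-D2KO saline replicate 1. Leaving out any 1 array gave 5 to 9 calls in Astro-D2KO mice, 4 to 6 in control mice and 8 to 12 on average over genotypes.

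**Figure D1:**
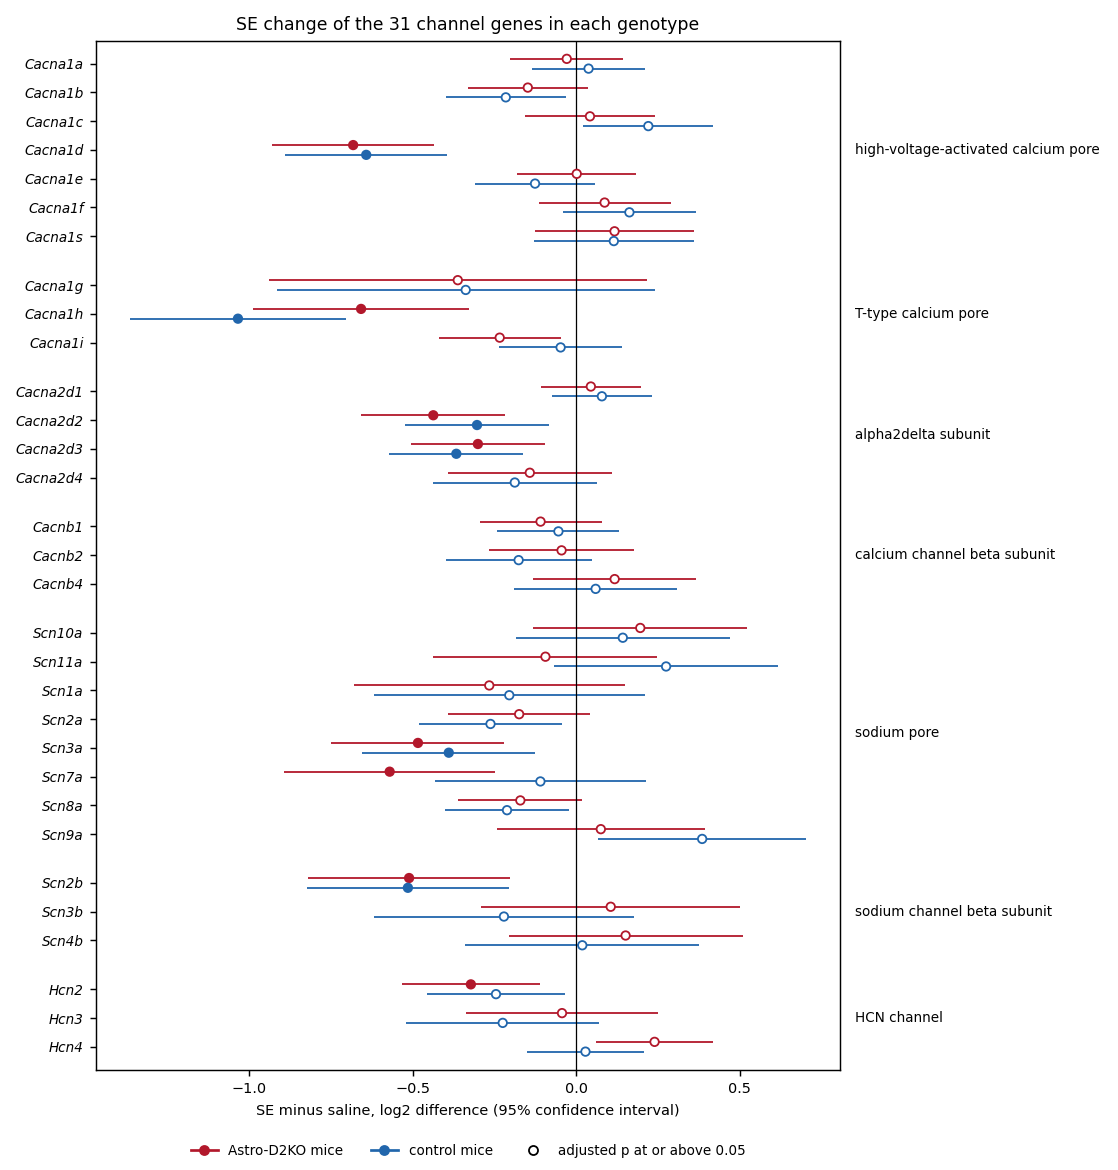
The plot gives the log2 difference of SE minus saline for each of the 31 channel genes, with its 95% confidence interval, in Astro-D2KO mice (red) and in control mice (blue), 4 arrays per group. Filled points have an adjusted p below 0.05: 8 genes in Astro-D2KO mice and 6 in control mice, all to the left of 0, with Cacna1h the furthest left in control mice at −1.03.

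The genotype groups were checked by Dio2, and 2 arrays went against the rest of their groups. The level of Dio2 was 8.91, 7.03, 7.17 and 7.12 (log2) after SE in Astro-D2KO mice, against 9.51, 9.11, 9.24 and 7.99 after SE in control mice. Under saline it was 6.75, 6.52, 7.09 and 6.77 in Astro-D2KO mice, against 7.87, 8.25, 8.17 and 8.28 in control mice. The genotypes did not overlap under saline (log2 difference −1.36, exact two-sided permutation p = 0.0286, the smallest that 4 arrays against 4 allow). They overlapped after SE through the arrays labelled Astro-D2KO SE replicate 1 and Control SE replicate 4 (−1.41, exact permutation p = 0.0571). Without these 2 arrays, 7 channel genes were called in Astro-D2KO mice, 5 in control mice and 9 on average over genotypes, all lower. Whether the labels of these 2 arrays are right was not tested, and replicates are named throughout as labelled. Correlations between arrays were 0.972 to 0.994, and no array held the same values as another.

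Some genes in lists of cell type markers moved with SE in the same tissue. On average over genotypes, 20.6% of all genes were called lower and 12.1% higher. Of genes that were not dim, 31.8% were called lower and 15.9% higher. Markers of CA1 pyramidal neurons, which belong to part of the hippocampus, had a list mean of 8.15 to 8.45 in SE arrays, against 8.07 to 8.39 in saline arrays. Of the 5 measured, 1 was higher, Man1a (0.24), and 0 were lower on average over genotypes. Of 10 dentate granule cell markers, 0 were higher and 6 lower on average over genotypes, led by Dsp (−1.41), Lct (−1.01) and C1ql2 (−0.97), while Prox1, the defining factor of these cells, did not pass (0.18). The mean of this list lay at 6.84 to 7.43 in the 8 SE arrays, against 7.18 to 7.99 in the 8 saline arrays. Of 6 neocortex markers, 2 were higher, Fezf2 (1.19) and Rorb (0.87), and the list mean lay at 7.84 to 8.68 in SE arrays, against 7.48 to 7.91 in saline arrays. The array labelled Control SE replicate 2 held both extremes, with the lowest dentate mean (6.84) and the highest neocortex mean (8.68). Of 10 pan-neuronal markers, 3 were higher and 5 lower, and the list mean lay at 10.61 to 10.75 in SE arrays, against 10.60 to 10.67 in saline arrays. Microglial markers had 3 of 5 lower, with a list mean of 6.82 to 7.17 in SE arrays, against 7.28 to 7.51 in saline arrays. Endothelial markers had 3 of 5 higher, led by Cdh5 (1.41), and 1 lower, Slco1a4 (−2.08), with a list mean of 7.61 to 7.87 in SE arrays, against 7.54 to 7.80 in saline arrays. CA2 and CA3 pyramidal markers had 1 of 8 higher and 3 lower, with a list mean of 8.24 to 8.45 in SE arrays, against 8.31 to 8.61 in saline arrays. Of 4 oligodendrocyte precursor markers 2 were lower, and of 8 astrocyte markers 2 were lower. The counts of lower genes for astrocytes and for CA2 and CA3 lay near the share of genes that were not dim. In this bulk tissue fewer cells of a type and less RNA per cell cannot be told apart. The part of these shifts in the channel differences was not tested.

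The promoters of 4 of the 6 genes called lower in both genotypes are shown first, those of Cacna1d, Cacna2d2, Cacna2d3 and Scn2b. The transcription factor genes Egr1 and Crem rose after SE (by 3.21 and 1.00 on the log2 scale, averaged over genotypes). The windows let a reader see which of their motifs are present. Whether these factors act on the channel genes was not tested. Entries for 24 of the 31 members, and for 9 of the 11 called members, were taken from RefSeq (GRCm38.p6). Each window runs from 250 bases before a gene start to 50 bases after it and is printed 5′ to 3′ on the gene's strand. Capitals mark the Egr motif GCGNGGGCG. Cacna1d has 2 starts. Those of Cacna1h and Scn3a are not shown.
Cacna1d, chr14:30491107-30491406, minus strand: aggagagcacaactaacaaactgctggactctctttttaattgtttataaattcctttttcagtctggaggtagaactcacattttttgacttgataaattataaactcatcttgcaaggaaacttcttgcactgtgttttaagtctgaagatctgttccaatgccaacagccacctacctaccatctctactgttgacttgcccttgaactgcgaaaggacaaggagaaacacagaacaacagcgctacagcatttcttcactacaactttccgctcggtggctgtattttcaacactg
Cacna1d, chr14:30353437-30353736, minus strand: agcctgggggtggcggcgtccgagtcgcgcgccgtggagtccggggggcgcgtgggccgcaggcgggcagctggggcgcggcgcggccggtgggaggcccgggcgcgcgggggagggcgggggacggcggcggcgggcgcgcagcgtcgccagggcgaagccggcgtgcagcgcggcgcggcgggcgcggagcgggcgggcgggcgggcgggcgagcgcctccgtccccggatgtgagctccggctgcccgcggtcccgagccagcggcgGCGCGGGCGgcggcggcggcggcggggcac
Cacna2d2, chr9:107399630-107399929, plus strand: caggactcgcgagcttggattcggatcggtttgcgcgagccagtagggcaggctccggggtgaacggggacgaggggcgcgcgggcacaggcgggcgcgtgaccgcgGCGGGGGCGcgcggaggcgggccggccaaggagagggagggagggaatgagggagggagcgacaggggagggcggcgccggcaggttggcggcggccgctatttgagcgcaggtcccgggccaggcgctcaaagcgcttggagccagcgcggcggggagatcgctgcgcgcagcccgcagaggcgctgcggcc
Cacna2d3, chr14:29721815-29722114, minus strand: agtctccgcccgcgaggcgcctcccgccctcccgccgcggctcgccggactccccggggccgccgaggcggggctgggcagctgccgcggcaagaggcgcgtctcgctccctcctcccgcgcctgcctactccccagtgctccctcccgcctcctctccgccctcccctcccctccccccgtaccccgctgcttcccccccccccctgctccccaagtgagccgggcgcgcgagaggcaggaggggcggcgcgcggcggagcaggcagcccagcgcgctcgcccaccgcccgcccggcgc
Scn2b, chr9:45117626-45117925, plus strand: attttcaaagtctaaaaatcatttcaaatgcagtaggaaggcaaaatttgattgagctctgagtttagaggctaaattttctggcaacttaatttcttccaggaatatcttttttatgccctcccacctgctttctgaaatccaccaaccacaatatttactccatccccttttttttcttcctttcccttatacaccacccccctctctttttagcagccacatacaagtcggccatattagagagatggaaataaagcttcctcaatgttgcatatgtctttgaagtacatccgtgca

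The motifs searched on both strands were the Egr motif GCGNGGGCG, the cAMP response element TGACGTCA, its core TGACG, which lies inside the full element, and the AP-1 motif TGANTCA. Counted from the gene start, the Egr motif began at position 21 of the second start of Cacna1d and at position −143 of Cacna2d2, and no match to it stood in the windows of Cacna2d3, Scn2b or the first start of Cacna1d. These windows differed widely in base composition. The G and C share was 40.3% and 87.3% at the 2 starts of Cacna1d, 75.7% for Cacna2d2, 81.3% for Cacna2d3 and 38.3% for Scn2b. Among the other called members the Egr motif was found before the starts of Cacna1b, Hcn2, Scn7a and Scn8a. It was in 8 of 33 windows of the members, beside 5.55% of 32851 windows of all genes. The full cAMP response element was in 0 of 33 (1.79% of all windows), the core in 6 of 33 (20.8%) and the AP-1 motif in 0 of 33 (7.81%). The windows of all genes were not matched to those of the members in base composition, so these shares cannot be told apart from it. A match is a run of letters and not a measured binding site.

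Among the high-voltage-activated calcium pores, 2 of 7 fell and 0 rose on average over genotypes, and the median log2 difference of the 7 was 0.0042. Over all genes, 20.6% were called lower and 12.1% higher. Cacna1d encodes an L-type pore that opens at relatively negative voltages and couples activity to gene regulation (probe set 17304353). Its level was 7.54, 7.47, 7.42 and 7.78 (log2) after SE in Astro-D2KO mice, against 8.19, 8.18, 8.44 and 8.12 under saline. Control mice had 7.40, 7.61, 7.89 and 7.45 after SE, against 8.24, 8.24, 8.41 and 8.01 under saline. All 8 SE arrays lay below all 8 saline arrays, and 7.48% of all genes were lower in this way. Cacna1d fell by 0.68 in Astro-D2KO mice (standard error 0.117, 1.60-fold, adjusted p = 0.000528) and by 0.64 in control mice (standard error 0.117, 1.56-fold, adjusted p = 0.000739). On average over genotypes the fall was 0.66 (95% confidence interval of the log2 difference −0.84 to −0.49). This call held under every alternative that was run.

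The N-type pore gene Cacna1b, whose channel triggers transmitter release at many terminals, showed a smaller difference (probe set 17382249). Its level was 8.73, 8.72, 8.86 and 8.66 after SE in Astro-D2KO mice, against 9.08, 8.86, 8.85 and 8.77 under saline. In control mice the 4 arrays stood at 8.58, 8.64, 8.59 and 8.77 after SE, against 8.66, 8.93, 8.92 and 8.93 under saline. The groups overlapped in both genotypes, through the highest SE arrays and, in control mice, through the low saline replicate 1. Cacna1b fell by 0.18 on average over genotypes (standard error 0.0616, 1.13-fold, adjusted p = 0.0302), and neither genotype passed alone (−0.15 in Astro-D2KO mice and −0.22 in control mice). The averaged call was lost, with an adjusted p of up to 0.0714, without any 1 of 8 arrays: Astro-D2KO SE replicates 2 and 4, Astro-D2KO saline replicate 1, Control SE replicates 1 and 3, and Control saline replicates 2, 3 and 4. It was also lost with arrays centred on their medians (−0.15, adjusted p = 0.0633) and with the replicate number as a block (adjusted p = 0.0545). Without Control saline replicate 1 it passed in control mice alone (−0.28, adjusted p = 0.0274).

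The other pores of this class did not pass. Cacna1a, the P/Q-type pore of fast transmitter release, differed by −0.029 in Astro-D2KO mice and 0.037 in control mice. Cacna1e, the R-type pore, differed by 0.0014 and −0.13 in the same order of genotypes. Cacna1c, the main L-type pore of hippocampal pyramidal neurons, had a log2 difference of 0.042 in Astro-D2KO mice and 0.22 in control mice (adjusted p = 0.82 and 0.109). The 2 L-type genes of this tissue thus stood on opposite sides of 0 in each genotype, and only the fall of Cacna1d passed. Cacna1f, known from photoreceptors, and Cacna1s, known from skeletal muscle, were dim. Their log2 differences were 0.087 and 0.12 in Astro-D2KO mice, and 0.16 and 0.11 in control mice.

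T-type calcium pores open near resting potential and drive bursts of action potentials. Cacna1h, which encodes one of them, held the largest log2 difference of all 31 members in control mice (probe set 17342249). In rodents given pilocarpine it is known for a gain of T-type current in CA1 neurons during the weeks that follow SE. Its level was 8.41, 8.56, 8.66 and 8.57 after SE in Astro-D2KO mice, against 9.44, 9.32, 8.95 and 9.13 under saline. Control mice stood at 8.20, 7.93, 8.02 and 8.35 after SE, against 9.48, 9.49, 8.99 and 8.68 under saline. No SE array reached a saline array across the 16 arrays, as for 7.48% of all genes with lower SE arrays. The saline arrays of control mice were the most spread. Cacna1h fell by 0.66 in Astro-D2KO mice (standard error 0.157, 1.58-fold, adjusted p = 0.00606) and by 1.03 in control mice (standard error 0.157, 2.05-fold, adjusted p = 0.000141). Both calls, and that of the average (−0.85, 1.80-fold), held under every alternative that was run.

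Cacna1g, a T-type pore known from thalamus and from hippocampal neurons, had log2 differences of −0.36 in Astro-D2KO mice and −0.34 in control mice, which did not pass. Its arrays were the most spread of the members. It lay at 7.18 to 7.88 after SE in Astro-D2KO mice, against 7.34 to 8.41 under saline, and at 7.01 to 7.81 after SE in control mice, against 7.19 to 8.31 under saline. The confidence interval of its average difference (−0.76 to 0.06) includes falls as large as that of Cacna1d. The thalamus and habenula markers, whose list mean lay at 6.98 to 7.44 in SE arrays, against 7.12 to 7.69 in saline arrays, had 1 of 8 genes higher and 0 lower. Over all genes, 12.1% were called higher and 20.6% lower. Cacna1i, the remaining T-type pore, differed by −0.23 in Astro-D2KO mice (adjusted p = 0.0744) and by −0.048 in control mice. In Astro-D2KO mice it passed as a fall with dim genes left out (adjusted p = 0.0426) and with array weights (−0.25, adjusted p = 0.0400).

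Alpha2delta subunits carry calcium channels to the membrane and bind the gabapentinoid drugs in the case of the products of Cacna2d1 and Cacna2d2. Of the 4 genes, 2 fell in each genotype and the other 2 did not pass. Over all genes, 12.6% were called lower in Astro-D2KO mice and 13.7% in control mice. Cacna2d2 (probe set 17521327) stood at 6.94, 6.97, 6.96 and 7.22 after SE in Astro-D2KO mice, against 7.57, 7.46, 7.37 and 7.44 under saline. Control mice had 6.98, 7.01, 7.04 and 7.12 after SE, against 7.47, 7.58, 7.01 and 7.31 under saline. The Astro-D2KO groups did not overlap, as for 15.1% of all genes with lower SE arrays, while in control mice saline replicate 3 lay among the SE arrays. Cacna2d2 fell by 0.44 in Astro-D2KO mice (standard error 0.104, 1.35-fold, adjusted p = 0.00611) and by 0.30 in control mice (standard error 0.104, 1.23-fold, adjusted p = 0.0447). The call in control mice was lost, with an adjusted p of up to 0.157, without any 1 of 12 arrays: replicates 1, 2 and 3 of Astro-D2KO SE and of Control SE, and replicates 1, 2 and 4 of Astro-D2KO saline and of Control saline. It was also lost with arrays centred on their medians, with quantile normalization repeated, with array weights, with only the groups compared and without both arrays that went against their Dio2 label (adjusted p of 0.0553 to 0.125). The fall in Astro-D2KO mice and on average (−0.37) held under every alternative that was run.

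Cacna2d3 (probe set 17304297) encodes an alpha2delta subunit widespread in brain. Its level was 9.07, 9.11, 8.96 and 9.32 after SE in Astro-D2KO mice, against 9.56, 9.42, 9.31 and 9.37 under saline. In control mice the level was 8.87, 9.16, 9.07 and 8.85 after SE, against 9.52, 9.35, 9.30 and 9.25 under saline. All SE arrays of control mice lay below their saline arrays, as for 13.7% of all genes, and in Astro-D2KO mice SE replicate 4 lay just above the lowest saline array. Cacna2d3 fell by 0.30 in Astro-D2KO mice (standard error 0.0971, 1.23-fold, adjusted p = 0.0362) and by 0.37 in control mice (standard error 0.0971, 1.29-fold, adjusted p = 0.0109). The call in Astro-D2KO mice was lost, with an adjusted p of up to 0.12, without any 1 of Astro-D2KO SE replicates 1, 2 and 3 and Astro-D2KO saline replicates 1, 2 and 4. It was also lost with arrays centred on their medians (adjusted p = 0.0649), with the replicate block (adjusted p = 0.0558) and without both arrays that went against their Dio2 label (adjusted p = 0.0749). Cacna2d1 differed by 0.044 in Astro-D2KO mice and 0.078 in control mice and did not pass. Cacna2d4, known from photoreceptors, was dim and differed by −0.14 in Astro-D2KO mice and −0.19 in control mice. Without Astro-D2KO SE replicate 3 it passed as a fall on average over genotypes (−0.22, adjusted p = 0.0310).

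Calcium channel beta subunits bind the pore from the cytosol and set its opening and its lifetime at the membrane. None of the 3 measured genes passed in any comparison. The log2 differences were −0.11 in Astro-D2KO mice and −0.055 in control mice for Cacnb1, −0.045 and −0.18 for Cacnb2, and 0.12 and 0.059 for Cacnb4, in the same order of genotypes. The 95% confidence intervals of the averages lay within −0.27 and 0.26. A second probe set of Cacnb2 (0.084 in Astro-D2KO mice and 0.16 in control mice) and one of Cacnb4 (0.025 and −0.024) did not pass either. Both were dim, with mean levels of 5.21 and 4.29, and their sign was opposite to that of the first probe set for Cacnb2 in both genotypes and for Cacnb4 in control mice.

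Among the sodium pores, 4 of 8 fell on average over genotypes, with a median log2 difference of −0.20, where 20.6% of all genes were called lower. Scn3a (probe set 17385924) encodes a pore most abundant before birth. Its level was 8.22, 8.34, 8.41 and 8.64 after SE in Astro-D2KO mice, against 8.76, 8.91, 9.10 and 8.78 under saline. Control mice showed 8.48, 8.08, 8.69 and 8.65 after SE, against 8.93, 8.72, 8.95 and 8.85 under saline. All 8 SE arrays lay below all 8 saline arrays, as for 7.48% of all genes, by a narrow margin in control mice. Scn3a fell by 0.48 in Astro-D2KO mice (standard error 0.125, 1.40-fold, adjusted p = 0.0105) and by 0.39 in control mice (standard error 0.125, 1.31-fold, adjusted p = 0.0328). Without Control SE replicate 2, the lowest array, the control difference was −0.26 (adjusted p = 0.113). It was also lost, with a smaller adjusted p, without Control SE replicate 1 and without Control saline replicates 1, 3 and 4, with arrays centred on their medians (adjusted p = 0.050003) and with only the groups compared (adjusted p = 0.0644). The fall in Astro-D2KO mice held under every alternative that was run.

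Scn2a and Scn8a encode the main sodium pores of the axon initial segment of excitatory neurons. Scn2a (probe set 17371221) stood at 10.18, 9.99, 10.08 and 10.30 after SE in Astro-D2KO mice, against 10.32, 10.24, 10.49 and 10.19 under saline. Its control levels were 9.99, 10.22, 10.32 and 9.86 after SE, against 10.27, 10.32, 10.39 and 10.46 under saline. The SE and saline arrays overlapped in both genotypes. Scn8a (probe set 17315087) stood at 9.96, 9.84, 9.77 and 9.97 after SE in Astro-D2KO mice, against 10.06, 10.00, 10.14 and 10.01 under saline. Its control levels were 9.73, 10.05, 10.07 and 9.80 after SE, against 10.00, 10.09, 10.19 and 10.23 under saline. The Astro-D2KO groups of Scn8a did not overlap, as for 15.1% of all genes with lower SE arrays. Control SE replicates 2 and 3 lay within the control saline range. On average over genotypes Scn2a fell by 0.22 (standard error 0.073, 1.16-fold, adjusted p = 0.0282) and Scn8a by 0.19 (standard error 0.0635, 1.14-fold, adjusted p = 0.0272). Neither passed in 1 genotype alone, with adjusted p of 0.274 and 0.212 in Astro-D2KO mice and 0.0803 and 0.106 in control mice.

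The averaged calls of these genes rested on many single arrays and on the scaling. With arrays centred on their medians Scn2a gave an adjusted p of 0.0644 and Scn8a one of 0.0701, so both calls were lost. That of Scn2a was lost, with an adjusted p of up to 0.063 for 1 array, without Astro-D2KO SE replicate 2 or 3, Astro-D2KO saline replicate 3, Control SE replicate 1 or 4, or Control saline replicate 4. That of Scn8a was lost, with an adjusted p of up to 0.0611 for 1 array, without Astro-D2KO SE replicate 2 or 3, Astro-D2KO saline replicate 3, Control SE replicate 1 or 4, or Control saline replicate 3 or 4. Without both arrays that went against their Dio2 label, Scn2a gave an adjusted p of 0.069 and Scn8a one of 0.0509. In control mice alone Scn2a passed without Control SE replicate 3 (−0.34, adjusted p = 0.0319) and with dim genes left out (−0.26, adjusted p = 0.0496). Scn8a passed in control mice with quantile normalization repeated (−0.26, adjusted p = 0.0432).

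Scn7a (probe set 17386090) encodes a sodium-sensing relative of these pores known from glia and the circumventricular organs, and its probe set was dim in every array, so no fold is given. Its level was 4.84, 4.63, 4.73 and 5.26 after SE in Astro-D2KO mice, against 5.69, 5.62, 5.16 and 5.28 under saline. In control mice it was 5.03, 5.04, 5.33 and 5.16 after SE, against 4.90, 5.31, 5.53 and 5.26 under saline. The SE arrays lay mostly below the saline arrays in Astro-D2KO mice, with SE replicate 4 among them, and the groups of control mice overlapped throughout. Scn7a fell by 0.57 in Astro-D2KO mice (standard error 0.152, adjusted p = 0.0127), and differed by −0.11 in control mice (adjusted p = 0.681). The difference between these responses was −0.46 (95% confidence interval −0.91 to −0.0061, unadjusted p = 0.0473 in limma), with an adjusted p of 0.998. Without Astro-D2KO saline replicate 1 the call in Astro-D2KO mice was lost (−0.49, adjusted p = 0.0503).

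Scn1a, the pore most tied to firing of inhibitory neurons and to Dravet syndrome, differed by −0.27 in Astro-D2KO mice and −0.20 in control mice and did not pass. It lay at 8.02 to 8.52 after SE in Astro-D2KO mice, against 8.39 to 8.78 under saline, and at 7.89 to 9.02 after SE in control mice, against 8.32 to 8.80 under saline. The highest of all these arrays was Control SE replicate 2, the array with the highest neocortex markers, and without it Scn1a passed as a fall on average over genotypes (−0.33, adjusted p = 0.0455). Of 11 interneuron markers measured, 2 were higher and 2 lower, where 12.1% of all genes were called higher and 20.6% lower. Their list mean lay at 8.23 to 8.39 in SE arrays, against 8.13 to 8.38 in saline arrays. The pores known from sensory neurons were dim: Scn9a differed by 0.075 in Astro-D2KO mice and 0.38 in control mice (adjusted p = 0.0786), Scn10a by 0.20 and 0.14, and Scn11a by −0.094 and 0.27, none of which passed.

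Several members are neighbours in the genome. In RefSeq (GRCm38.p6) Scn3a and Scn2a are neighbours on chromosome 2, followed after 3 other protein-coding genes by Scn1a, Scn9a and Scn7a next to each other. Within this cluster the average log2 differences were −0.44 for Scn3a, −0.22 for Scn2a, −0.24 for Scn1a, 0.23 for Scn9a and −0.34 for Scn7a. Scn2b and Scn4b are likewise neighbours on chromosome 9, with differences of −0.51 and 0.084. Cacna2d3 and Cacna1d, both called in each genotype, lie on chromosome 14 with 5 protein-coding genes between them. Cacna1c and Cacna2d4 lie closer, on chromosome 6 with 1 protein-coding gene between them. Neither was called with all arrays, and their differences had opposite signs in both genotypes. Scn10a and Scn11a, next to each other on chromosome 9, were not called either.

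Sodium channel beta subunits are single-pass proteins that modulate gating and bind the pore to other membrane proteins. Scn2b (probe set 17516731) stood at 8.91, 8.64, 8.58 and 8.68 after SE in Astro-D2KO mice, against 9.18, 9.12, 9.53 and 9.02 under saline. In control mice its level was 8.93, 9.22, 9.0 and 8.41 after SE, against 9.23, 9.34, 9.51 and 9.54 under saline. Neither genotype showed any overlap of its SE and saline arrays. Over all genes, 15.1% had all SE arrays below all saline arrays in Astro-D2KO mice and 13.7% in control mice. The lowest Scn2b array of all was the one labelled Control SE replicate 4. Scn2b fell by 0.51 in Astro-D2KO mice (standard error 0.146, 1.42-fold, adjusted p = 0.0191) and by 0.51 in control mice (standard error 0.146, 1.43-fold, adjusted p = 0.0167). The control call was lost without Control SE replicate 4 (−0.35, adjusted p = 0.0515). That in Astro-D2KO mice was lost without Astro-D2KO SE replicate 3 or Astro-D2KO saline replicate 3 (adjusted p up to 0.074). The averaged fall held without each array in turn. Scn3b differed by 0.11 in Astro-D2KO mice and −0.22 in control mice, and Scn4b by 0.15 and 0.018. Neither passed, and their 95% confidence intervals reached 0.50 and 0.51 above 0 in Astro-D2KO mice.

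Of the 3 HCN genes, Hcn2 (probe set 17234936), a pore widespread in thalamus and hippocampus, fell on average over genotypes. Its level was 7.93, 7.70, 7.58 and 7.81 after SE in Astro-D2KO mice, against 8.14, 8.07, 7.99 and 8.12 under saline. Control mice held 7.86, 8.15, 7.94 and 7.70 after SE, against 8.31, 8.23, 8.02 and 8.08 under saline. The Astro-D2KO groups did not overlap, as for 15.1% of all genes with lower SE arrays, and in control mice SE replicate 2 lay within the saline range. Hcn2 fell by 0.28 on average (standard error 0.0709, 1.22-fold, adjusted p = 0.00449) and by 0.32 in Astro-D2KO mice (standard error 0.1, 1.25-fold, adjusted p = 0.0301), and its control difference of −0.25 did not pass (adjusted p = 0.0926). The Astro-D2KO call was lost, with an adjusted p of up to 0.105, without Astro-D2KO SE replicate 2 or 3 or Astro-D2KO saline replicate 1, 2 or 4. It was also lost with arrays centred on their medians (adjusted p = 0.0542) and with quantile normalization repeated (adjusted p = 0.0688). Without Control SE replicate 2 it passed in control mice too (−0.32, adjusted p = 0.0265). Hcn3 differed by −0.044 in Astro-D2KO mice and −0.22 in control mice. Hcn4, the sinoatrial and thalamic pore, was dim and differed by 0.24 in Astro-D2KO mice (adjusted p = 0.0575) and by 0.028 in control mice.

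**Figure D2:**
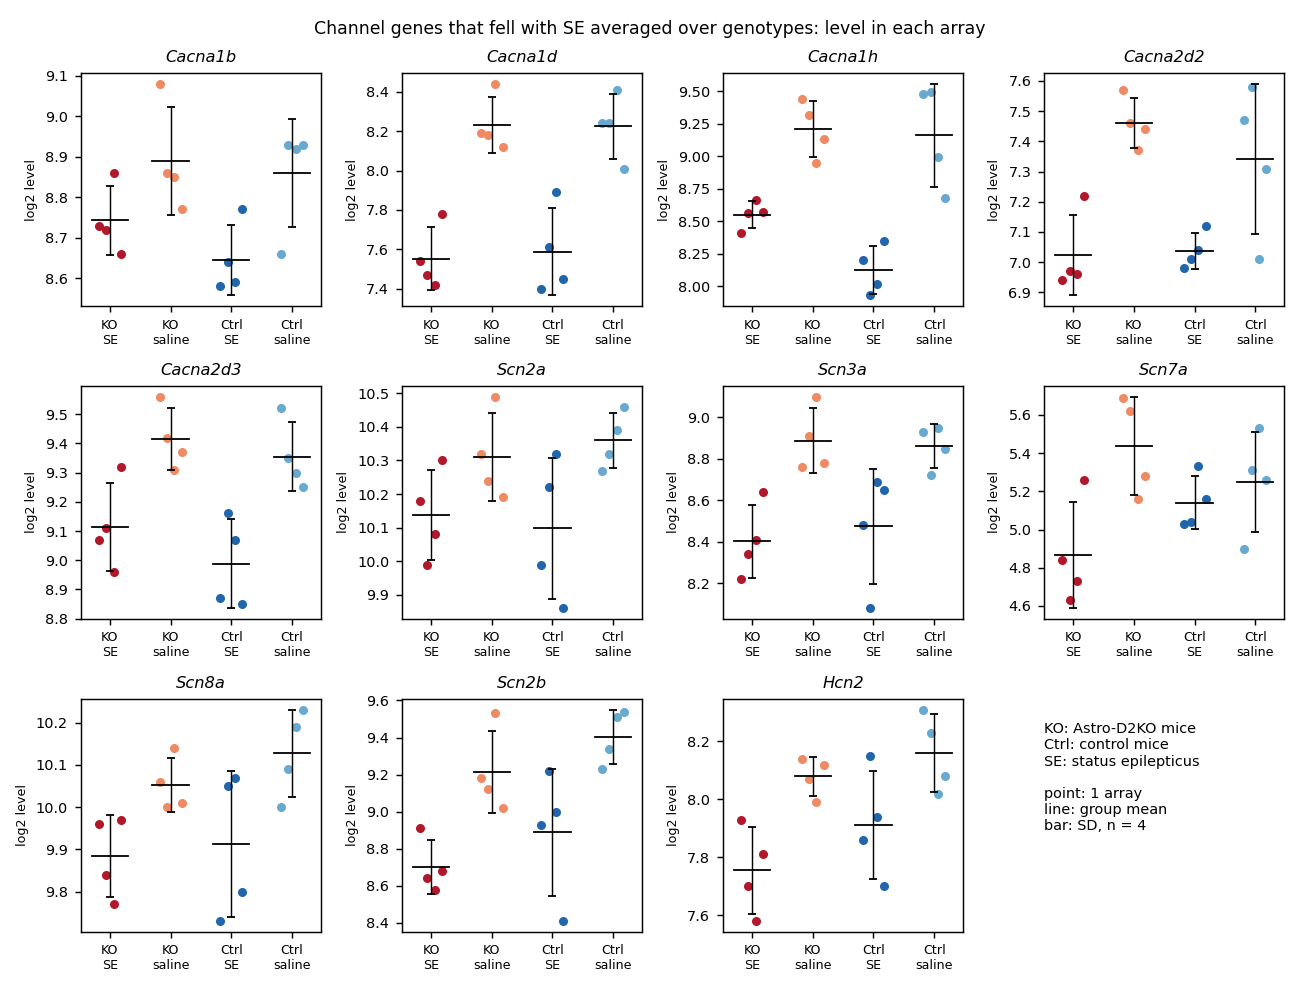
Each panel gives the log2 level of 1 of the 11 channel genes that fell on average over genotypes, in every array of the 4 groups, with the group mean (line) and SD (bar, n = 4); the vertical axes differ between panels. In Cacna1d, Cacna1h and Scn3a all 8 SE arrays lie below all 8 saline arrays, as for 7.48% of all genes. In the other panels at least 1 SE array overlaps a saline array of either genotype.

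The fall of the 11 genes was spread over the SE arrays rather than held by 1 of them. Set against the saline mean of their own genotype, the 11 genes averaged −0.41, −0.47, −0.47 and −0.27 in the 4 SE arrays of Astro-D2KO mice. In control mice the averages were −0.46, −0.36, −0.29 and −0.45. All 11 lay below the saline mean in 7 of these arrays, and 10 of 11 did in Control SE replicate 3. These values describe genes chosen for their fall and carry no test.

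Genotype made no called difference to any channel gene. Astro-D2KO minus control called 0 of 31 members under saline and 0 after SE, and 0 of all genes (0%) in either comparison. The difference between the genotypes in their response to SE called 0 members, again beside 0% of all genes. Without both arrays that went against their Dio2 label, 0 members were called in these comparisons, while over all genes 1 was called under saline, 5 after SE and 1 in the difference of responses. At an unadjusted p under 0.05 in limma, 0 members passed under saline, 1 after SE (Cacna1h) and 1 in the difference of responses (Scn7a), beside 885, 1358 and 1031 of all genes. The SE responses in the 2 genotypes, which share no arrays, had the same sign for 27 of 31 members. The share of all genes with the same sign was not computed, so this count has no background beside it. Of the 8 members called in either genotype, 6 were called in both: Cacna1d, Cacna1h, Cacna2d2, Cacna2d3, Scn2b and Scn3a. Over all genes, 9.05% were called lower in both. The precision was limited: the 95% confidence interval of the difference in response reached a median of 0.34 to either side of the estimate over the members, and for 22 of 31 it lay within a 1.5-fold change.

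Of the 31 members, Cacna1h had the largest log2 difference between the genotypes after SE. The 4 Astro-D2KO SE arrays, 8.41 to 8.66, all lay above the 4 control SE arrays, 7.93 to 8.35, as did 1.53% of all genes. Under saline the genotypes overlapped, at 8.95 to 9.44 in Astro-D2KO mice and 8.68 to 9.49 in control mice. The log2 difference after SE was 0.42 (95% confidence interval 0.09 to 0.75, unadjusted p = 0.0148, adjusted p = 0.722 in limma). Without both arrays that went against their Dio2 label it was 0.55 (adjusted p = 0.258). The difference between the SE responses was 0.38 (95% confidence interval −0.09 to 0.84, adjusted p = 0.998), so the smaller fall of Cacna1h in Astro-D2KO mice did not pass as a difference.

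**Figure D3:**
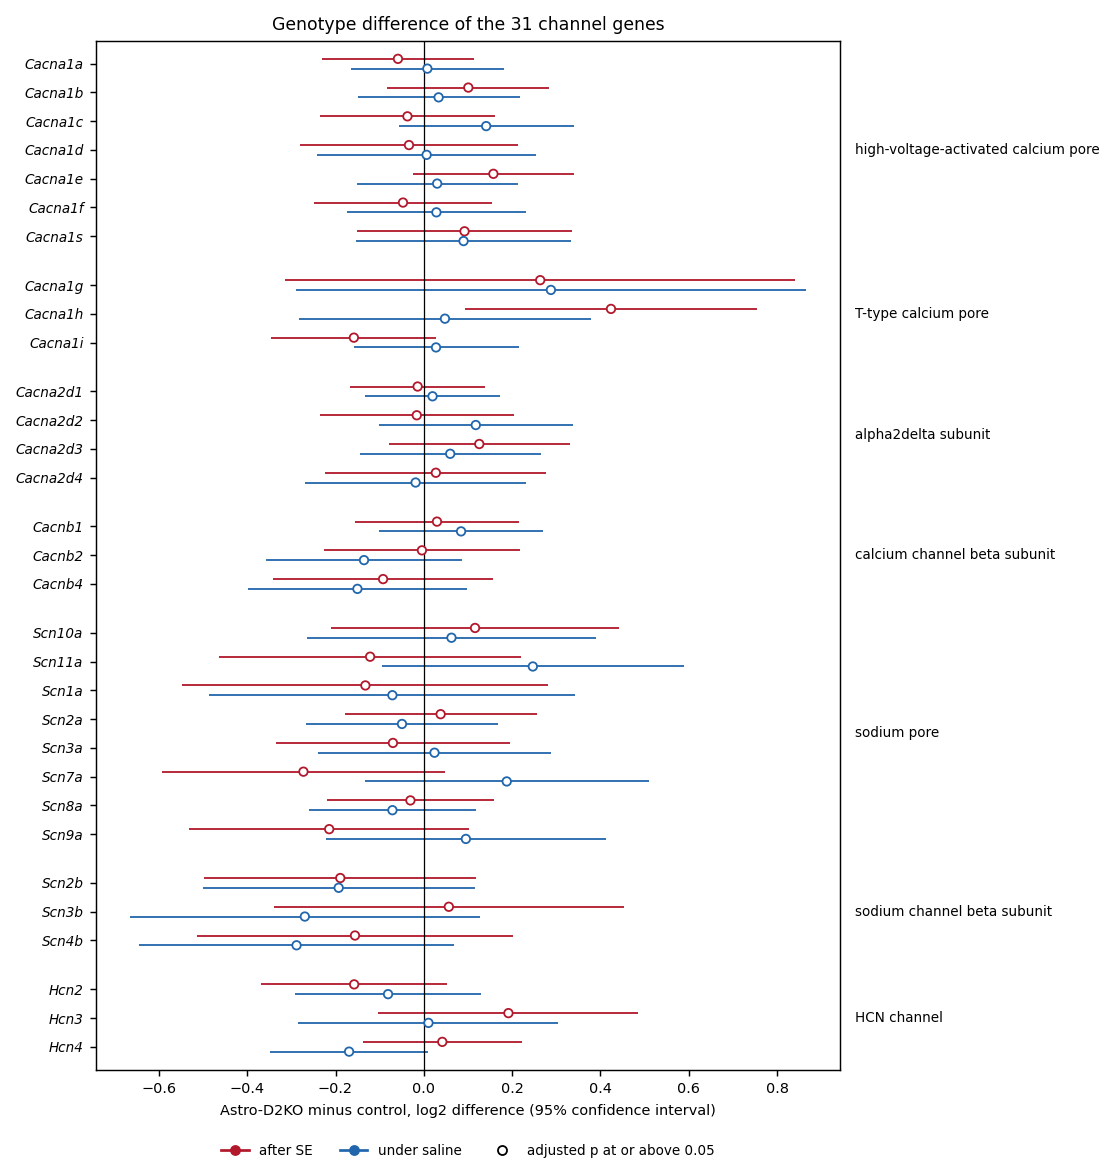
The plot gives the log2 difference of Astro-D2KO minus control for each of the 31 channel genes, with its 95% confidence interval, after SE (red) and under saline (blue), 4 arrays per group. No point is filled, since no adjusted p was below 0.05, and the interval after SE that lies clear of 0 is that of Cacna1h (0.09 to 0.75).

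Genes whose products act with these channels were called in both directions. The list of them held 45 symbols, and 40 of these were measured. On average over genotypes 12 rose and 12 fell, with a median log2 difference of −0.0096, where 12.1% of all genes were called higher and 20.6% lower. In Astro-D2KO mice 7 rose and 6 fell, where 7.49% of all genes were called higher and 12.6% lower. In control mice 8 rose and 9 fell, where 8.42% were called higher and 13.7% lower. The list was drawn up with earlier results of these data known. Genotype called 0 of the 40 in either treatment.

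The RGK proteins are small GTPases that bind the beta subunit and shut down high-voltage-activated calcium channels. All 3 measured genes rose on average over genotypes, where 12.1% of all genes were called higher. Gem stood at 7.59, 7.66, 7.53 and 7.71 after SE in Astro-D2KO mice, against 6.19, 5.96, 5.80 and 6.21 under saline. Control mice reached 8.00, 7.43, 8.10 and 7.39 after SE, against 6.36, 6.32, 5.90 and 6.14 under saline. Every SE array of Gem lay more than 1 log2 unit above every saline array, and 4.68% of all genes had all SE arrays above all saline arrays. Gem rose by 1.58 in Astro-D2KO mice (adjusted p = 1.28e-06) and by 1.55 in control mice (adjusted p = 1.6e-06), or 2.96-fold on average. Rrad rose by 1.33 in Astro-D2KO mice (adjusted p = 1.72e-05) and by 1.38 in control mice (adjusted p = 1.05e-05). Rem2 rose by 0.72 in control mice (adjusted p = 0.000652) and differed by 0.32 in Astro-D2KO mice (adjusted p = 0.0983). It lay at 7.22 to 7.82 after SE in Astro-D2KO mice, against 6.96 to 7.32 under saline. In control mice it lay at 7.31 to 7.58 after SE, against 6.43 to 6.92 under saline. The genotypes of Rem2 thus overlapped after SE but not under saline. Under saline 282 of all 22180 genes had all Astro-D2KO arrays above all control arrays. No genotype difference of Rem2 was called. The calls of Gem, Rrad and, in control mice, Rem2 held without each array in turn.

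Of 8 gamma subunit genes, most of which encode TARPs that anchor AMPA receptors rather than calcium channels, 1 rose and 2 fell on average over genotypes. Over all genes, 12.1% were called higher and 20.6% lower, so these counts lay near the background. Cacng3 stood at 11.34, 11.21, 11.29 and 11.14 after SE in Astro-D2KO mice, against 9.86, 10.07, 10.37 and 9.84 under saline. Its control levels were 11.19, 11.35, 11.15 and 11.19 after SE, against 10.15, 10.16, 10.25 and 10.41 under saline. The SE arrays lay in a narrow band well above all saline arrays, and 4.68% of all genes had all SE arrays above all saline arrays. Cacng3 rose by 1.21 in Astro-D2KO mice (adjusted p = 4.58e-07) and by 0.97 in control mice (adjusted p = 4.53e-06). Cacng8, the main TARP of hippocampal pyramidal neurons, fell by 0.39 in Astro-D2KO mice (adjusted p = 0.0067) and by 0.58 in control mice (adjusted p = 0.000289). Cacng5 fell by 0.32 in both genotypes (adjusted p = 0.0083 in Astro-D2KO mice and 0.00668 in control mice). These calls held without each array in turn.

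NALCN is a sodium leak channel outside the voltage-gated families, which sets resting excitability together with UNC79 and UNC80. On average over genotypes 3 of its 4 listed genes fell, where 20.6% of all genes were called lower. Nalcn fell by 0.45 in Astro-D2KO mice (adjusted p = 0.00533) and by 0.50 in control mice (adjusted p = 0.00213), and Unc79 by 0.40 (adjusted p = 0.0015) and 0.34 (adjusted p = 0.00457) in the same order of genotypes. Unc80 fell by 0.24 on average (adjusted p = 0.0417), a call lost, with an adjusted p of up to 0.0899, without any 1 of replicates 2, 3 and 4 of Astro-D2KO SE, replicates 1, 2 and 3 of Astro-D2KO saline, and replicates 3 and 4 of Control SE and of Control saline. It was also lost with arrays centred on their medians (adjusted p = 0.0752) and with the replicate block (adjusted p = 0.0544). The Nalcn and Unc79 calls held without each array in turn. Rimbp2, an active zone protein that ties calcium channels to release sites, fell by 0.71 in Astro-D2KO mice (adjusted p = 0.00105) and by 0.42 in control mice (adjusted p = 0.0321), the second of which was lost without Control SE replicate 1 or 3 or Control saline replicate 1 or 2 (adjusted p up to 0.114) and with only the groups compared (adjusted p = 0.0505). Stac, an adaptor of L-type channels, rose by 0.82 in Astro-D2KO mice (adjusted p = 0.00596) and differed by 0.34 in control mice (adjusted p = 0.237).

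Among the partners of sodium channels, Fgf11 fell by 0.49 in control mice (adjusted p = 0.0155) and by 0.40 on average (adjusted p = 0.00412), the control call being lost without Control SE replicate 2 or Control saline replicate 2 (adjusted p up to 0.0622). Fgf11 belongs to the intracellular FGF homologous factors, which bind the tails of sodium pores. Of 4 such genes, 2 fell and 0 rose on average over genotypes, the other fall being that of Fgf13. Of 5 genes for anchors of the axon initial segment, 1 rose (Sptbn4) and 2 fell (Cntn1 and Nfasc). Over all genes, 12.1% were called higher and 20.6% lower. With arrays centred on their medians the averaged calls of Fgf13, Cntn1 and Nfasc were lost (adjusted p of 0.0523 to 0.0892). Nedd4, a ubiquitin ligase of the family that removes sodium channels from the membrane, fell by 0.38 in Astro-D2KO mice (adjusted p = 0.00257) and by 0.31 on average (adjusted p = 0.000342). It was also called lower in control mice (−0.24). That call was lost with arrays centred on their medians (adjusted p = 0.0761), with only the groups compared (adjusted p = 0.0617) and with the replicate block (adjusted p = 0.0624). Nedd4l, the other listed ligase of this family, was not called. It differed by 0.11 in Astro-D2KO mice and by 0.062 in control mice. Of the 5 regulators of transcription, Egr1, an immediate early factor, rose by 3.12 in Astro-D2KO mice (adjusted p = 9.1e-10) and by 3.29 in control mice (adjusted p = 3.8e-10). Crem, whose products include a repressor of cAMP-driven genes, rose by 0.99 in Astro-D2KO mice (adjusted p = 1.42e-05) and by 1.01 in control mice (adjusted p = 1e-05). The calls of Egr1 and Crem held without each array in turn.

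**Figure D4:**
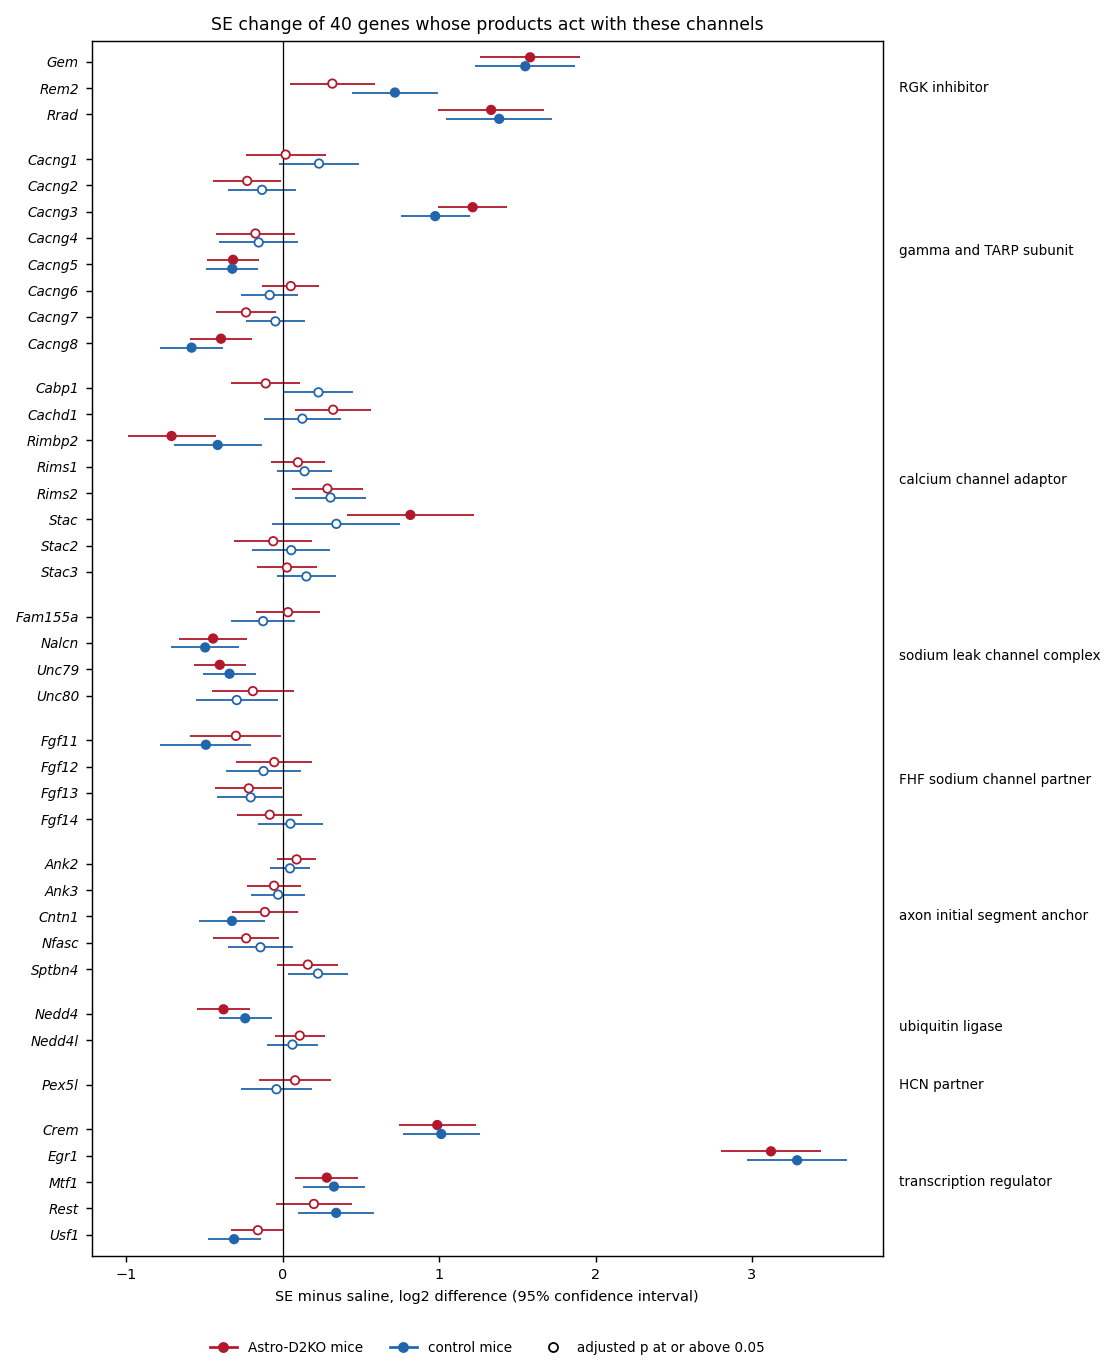
The plot gives the log2 difference of SE minus saline for 40 genes whose products act with the channels, by role, with 95% confidence intervals, in Astro-D2KO mice (red) and in control mice (blue), 4 arrays per group; filled points have an adjusted p below 0.05. Gem and Rrad lie above 1 in both genotypes, Cacng3 at 1.21 in Astro-D2KO mice and 0.97 in control mice, and Egr1 furthest to the right at 3.12 in Astro-D2KO mice and 3.29 in control mice.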

How the data were processed

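The authors deposited log2 values made with RMA, per the submitters' processing notes, which corrects background, normalises arrays by quantiles and summarises probe sets. The log2 base is inferred from values of 1.70 to 13.79 and array medians of 5.77 to 5.82. Of 41345 probe sets, 23521 had 1 gene symbol, 1814 several and 16010 none in the platform annotation, which gave 22180 genes, 1082 of them with several probe sets. Every value column was mapped to a labelled sample. Arrays have no read depth, so their number limits precision.

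A model with 1 mean for each group was fitted across all 16 arrays with limma 3.58.1 (R 4.3.3), using empirical Bayes moderation, 6 two-sided contrasts and no filter on level. The code was tested on simulated data. All members and every member called in a contrast are reported, and called members are given in every array. The members, gene lists and markers were chosen with earlier results of these data known. Same-numbered arrays did not deviate together (24 pairs, r of −0.29 to 0.34, 4 over 0.1), so the numbers were not used as pairs. Alternatives were the mean of a gene's probe sets, a filter on dim genes, median centring, repeated quantile normalization, trended robust moderation, array weights, only the groups compared, a replicate block, and each array or both doubted arrays left out.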

Additional observations from a re-analysis of the deposited data

Results flagged for a closer look

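Within groups of 4 arrays, 18 of the 284 groups examined over the 31 channel genes and 40 partner genes had 1 array far from the other 3. Chance alone marks about 1 in 20 such groups. The measure is the gap to the nearest array divided by the range of the group. Among channel genes, Cacna1b was low in Control saline replicate 1 (8.66 against 8.92 to 8.93, 0.947). Cacna1g was low in the array labelled Astro-D2KO SE replicate 1 (7.18 against 7.80 to 7.88, 0.892), where Cacnb4 was high (9.04 against 8.82 to 8.86, 0.835). Cacna2d2 was high in Astro-D2KO SE replicate 4 (7.22 against 6.94 to 6.97, 0.884), and Cacnb2 low in Astro-D2KO SE replicate 2 (8.75 against 9.03 to 9.08, 0.845).

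Among partner genes the array labelled Astro-D2KO SE replicate 1 was high for Cacng1 (5.0 against 4.86 to 4.88, 0.835) and Cacng8 (9.58 against 9.45 to 9.47, 0.872). The array labelled Control SE replicate 4 was low for Cntn1 (10.56 against 10.96 to 11.03, 0.853). Astro-D2KO SE replicate 2 was high for Unc79 (8.95 against 8.75 to 8.77, 0.908). Astro-D2KO SE replicate 4 was high for Egr1 (10.25 against 9.97 to 10.02, 0.83) and low for Mtf1 (7.19 against 7.51 to 7.56, 0.862). Under saline, Astro-D2KO replicate 1 was high for Fam155a (9.75 against 9.52 to 9.54, 0.884), replicate 3 was high for Sptbn4 (7.15 against 6.80 to 6.86, 0.837) and Unc80 (10.26 against 9.96 to 10.00, 0.849), and replicate 4 was high for Egr1 (7.26 against 6.80 to 6.85, 0.89). In control mice under saline, Cacng1 was low in replicate 1 (4.44 against 5.01 to 5.08, 0.887), Fam155a high in replicate 2 (9.91 against 9.61 to 9.66, 0.86) and Cacng8 high in replicate 3 (10.19 against 9.99 to 10.02, 0.853).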

How the results depend on the processing

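With 1 array left out at a time, the called channel genes numbered 5 to 9 in Astro-D2KO mice (8 with all arrays), 4 to 6 in control mice (6) and 8 to 12 on average over genotypes (11). The low end of 5 came without Astro-D2KO saline replicate 1. The remaining alternatives gave 7 to 9, 4 to 7 and 9 to 11 calls for the same comparisons. With arrays centred on their medians 1 of the calls, Hcn4, was a rise in Astro-D2KO mice and on average over genotypes. The genotype comparisons and the difference of responses gave 0 calls of channel genes under each setting run. With the replicate block the counts were 7, 6 and 10 for the SE comparisons, in the same order, and 0 for the others; the numbers do not pair the arrays. Over all settings, 15 of the 25 called results of channel genes kept their call and 10 lost it under some setting, and 0 changed direction. For partner genes, 40 of 54 kept it and 14 lost it. The cause of these losses was not tested. With 4 arrays per group the smaller falls, such as those of Cacna1b, Scn2a and Scn8a, lie near the limit of what passes.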

Other observations

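Further partner genes passed on average over genotypes without being described above. Rims2, which encodes an active zone scaffold of calcium channels, rose by 0.30 (adjusted p = 0.00598), and neither genotype passed alone. Rest, a repressor of neuronal genes, rose by 0.27 (adjusted p = 0.0163), and Mtf1, a metal-responsive factor, by 0.30 (adjusted p = 0.00173). Usf1 fell by 0.24 (adjusted p = 0.00349). These averaged calls held without each array in turn, but that of Rest was lost without both arrays that went against their Dio2 label (0.22, adjusted p = 0.069). Cachd1, which encodes an alpha2delta-like protein, also rose on average. Its call was lost with quantile normalization repeated (0.22, adjusted p = 0.0546).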
